A study of Mus musculus with 24 samples.

Results

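The BMP and TGF-beta receptors and SMADs described here are 10 genes, Bmpr1a, Bmpr2, Acvr1, Acvr1b, Tgfbr1, Tgfbr2, Smad1, Smad5, Smad6 and Smad7, of the 55414 genes in the count files, and all 10 were found by symbol. The 10 were listed by name, and Bmpr1a was selected on its CPM in 2-week HSPCs and B cells, where it was lower in Srcap mutants than in WT. The series sequenced mRNA of sorted marrow cells from C57BL6/J mice, WT or Srcap mutant, in 24 libraries that form 12 groups of 2. Srcap is the ATPase subunit of a remodeller that loads H2A.Z into chromatin, and the study concerns clonal hematopoiesis. The mutant and WT groups compared are HSPCs (hematopoietic stem and progenitor cells) with no treatment, labelled germline, HSPCs taken 12 hours after doxorubicin IP, a DNA-damaging drug, HSPCs taken 2 weeks after transplantation, HSPCs taken 20 weeks after transplantation, and B and T cells taken 2 weeks after transplantation. For the 20-week experiment the series describes donor cells carrying CD45.2 from a competitive transplant, and no source used here says how donor cells were told from host cells at 2 weeks. In the headers the mutant libraries are named "het" (untreated, doxorubicin and 20 weeks) or "Mut" (2 weeks) and the HSPCs LSK, and no source used here describes the allele further. The labels call the samples independent but do not tie them to animals, so p-values measure only the spread between these samples.

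Signals of this family are secreted dimers of the BMP, activin and TGF-beta groups that bring together type II and type I receptor kinases on the cell surface. The type I kinase then phosphorylates receptor SMADs, Smad1 and Smad5 on the BMP side and Smad2 and Smad3 on the TGF-beta and activin side, which enter the nucleus with Smad4. Smad6 and Smad7 are inhibitory SMADs that block the receptors and are themselves induced by the signal. In blood formation TGF-beta is best known for holding stem cells in quiescence and BMP for its part in the specification of blood from mesoderm and in the stem cell niche.

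Promoters of 9 of the 10 genes were taken from a RefSeq table of the GRCm38.p6 assembly, which holds 250 bases before and 50 bases after each start. Smad7 was left out of this search. The promoters of 3 genes are shown because the results turn on these genes: Bmpr1a on its level in mutants and in T-labelled libraries, Bmpr2 on its level after doxorubicin and Tgfbr2 on its level in B cells. Capitals mark GGCGCC, a GC-rich element known to be bound by SMAD1 and SMAD5, or GAGGAA, the core of sites for the myeloid and B cell factor PU.1. Both strands were searched for each motif. The Bmpr1a promoter lies at chr14:34502497-34502796 on the minus strand, that of Bmpr2 at chr1:59764029-59764328 on the plus strand and that of Tgfbr2 at chr9:116175314-116175613 on the minus strand.
Bmpr1a: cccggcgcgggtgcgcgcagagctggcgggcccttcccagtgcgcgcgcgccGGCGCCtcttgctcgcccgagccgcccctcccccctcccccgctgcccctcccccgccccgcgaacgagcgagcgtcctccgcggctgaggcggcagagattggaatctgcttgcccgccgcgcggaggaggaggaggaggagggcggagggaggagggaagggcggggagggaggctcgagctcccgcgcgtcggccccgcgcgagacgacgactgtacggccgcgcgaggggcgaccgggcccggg
Bmpr2: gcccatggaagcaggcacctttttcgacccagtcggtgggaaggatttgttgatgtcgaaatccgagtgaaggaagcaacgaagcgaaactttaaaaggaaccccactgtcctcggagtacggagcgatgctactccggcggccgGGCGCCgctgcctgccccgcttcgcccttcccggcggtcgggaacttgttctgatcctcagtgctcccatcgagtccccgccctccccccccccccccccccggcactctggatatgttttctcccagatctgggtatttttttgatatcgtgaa
Tgfbr2: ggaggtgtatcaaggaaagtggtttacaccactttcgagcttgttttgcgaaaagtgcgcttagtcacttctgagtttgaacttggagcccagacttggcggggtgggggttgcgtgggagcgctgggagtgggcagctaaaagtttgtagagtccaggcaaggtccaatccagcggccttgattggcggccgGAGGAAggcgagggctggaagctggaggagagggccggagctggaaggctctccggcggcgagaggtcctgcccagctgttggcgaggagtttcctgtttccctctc
GGCGCC stood in the windows of Bmpr1a, Bmpr2 and Acvr1b and at some of the starts of Tgfbr1 and Smad5, and in 11.9% of all 32851 promoters. GAGGAA stood in the windows of Tgfbr2 and Smad1 and at another start each of Tgfbr1 and Smad5, and in 28.3% of all promoters. CAGAC, the SMAD box, stood in the windows of Tgfbr2 and of 1 start each of Tgfbr1 and Smad5, against 49.6% of all promoters, and GATAA, the GATA core, only at 1 start of Smad5 against 25.4%. The windows of Acvr1 and Smad6 held none of these 4 motifs. A match describes the letters of a window and is not evidence of a bound site.

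Libraries held 26369992 to 78432483 counts and 17795 to 22062 genes with a count. Levels are CPM, counts scaled by the library's total, or TPM, which also divides by exon length. Changes between groups are log2 fold changes ± SE from edgeR's quasi-likelihood test. The SE was derived as the size of the log2 fold change divided by the square root of the test's F statistic. A gene is called when its adjusted p (Benjamini-Hochberg, over all genes tested) is under 0.05. Folds carry TMM scaling between libraries and CPM do not, so a fold can differ from the ratio of the CPM printed beside it. Srcap held 2.83 to 20.3 CPM and was not called in any genotype comparison. HSPC markers summed to 1170 to 3560 CPM in HSPCs, against 38.3 to 65.2 CPM in the other labels, and B cell markers to 7360 to 9990 CPM in B cells, but in the libraries labelled T cells 10 T cell markers summed to 13.8 to 22.3 CPM, against 44.2 to 131 CPM in HSPCs, and 10 granulocyte markers to 134000 to 153000 CPM. They are called T-labelled here, and no level in them is read as a T cell level. WT untreated replicate 1 carried granulocyte markers at 23200 CPM, where the other 3 untreated libraries held 141 to 402 CPM. All 12 libraries of 2 weeks held Xist at 320 CPM or more and Ddx3y at 0.0194 CPM or less, and the other 12 held Xist at 0.484 CPM or less and Ddx3y at 32.6 CPM or more, so comparisons of 2 weeks with untreated HSPCs also compare female with male cells, although the labels give no sex. Per the headers the files come from 3 directories, 1 for untreated and doxorubicin HSPCs, 1 for all 2-week libraries and 1 for 20 weeks, and genotype comparisons stay within one of them.

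Bmpr1a, the type I receptor of BMP2 and BMP4 (ENSMUSG00000021796.16, GRCm39 chromosome 14, 34132691 to 34225298, minus strand), had the lowest mean TPM of the 10 genes in HSPCs, and its CPM was higher in every T-labelled library than in any other. In 2-week HSPCs, where it was picked, neither mutant library held a single count, against 11 and 25 counts in WT, 0.315 and 0.563 CPM. A floor of 3 counts per library stands at 0.0603 and 0.114 CPM in the mutant libraries. The WT mean of 0.439 CPM was 5.04-fold above the mean of these floors. That ratio allows for counting error in the mutant zeros but for no error in the WT counts. The mutant libraries detected 17795 and 18326 genes, against 21603 and 19903 in WT, although mutant replicate 1 was the deepest of the 4, and the part of this in the zero counts was not tested. In 2-week B cells, where it was also picked, Bmpr1a had 0.486 and 0.715 CPM in mutants, against 1.44 and 2.22 CPM in WT, and the groups did not overlap. Because these contrasts chose the gene, they carry no test.

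In the libraries that did not choose it, Bmpr1a was not called between genotypes. Untreated mutant HSPCs held 2.51 and 1.71 CPM, against 3.17 and 2.86 CPM in WT, a log2 change of -0.54 ± 0.59 with adjusted p = 1. After doxorubicin mutant HSPCs held 1.14 and 0.953 CPM, against 1.72 and 1.47 CPM in WT, -0.66 ± 0.60 with adjusted p = 0.774. Both mutant libraries lay below both WT libraries in these conditions. WT untreated replicate 1, at 3.17 CPM, also carried granulocyte markers at 23200 CPM, and their part in the untreated difference was not tested. Mutant 20-week HSPCs held 1.7 and 2.77 CPM, against 2.37 and 2.45 CPM in WT, and the WT values lay between the mutant ones. The mean over the 3 conditions was -0.44 ± 0.34, with adjusted p = 0.688 in edgeR and a range of -0.60 to -0.33 when each library was left out. In T-labelled libraries, with 801 to 1080 counts each, Bmpr1a had 19.1 and 17.4 CPM in mutants and 17.7 and 19.6 CPM in WT, a difference of 0.04 ± 0.24 on the log2 scale with adjusted p = 1.

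**Figure D1:**
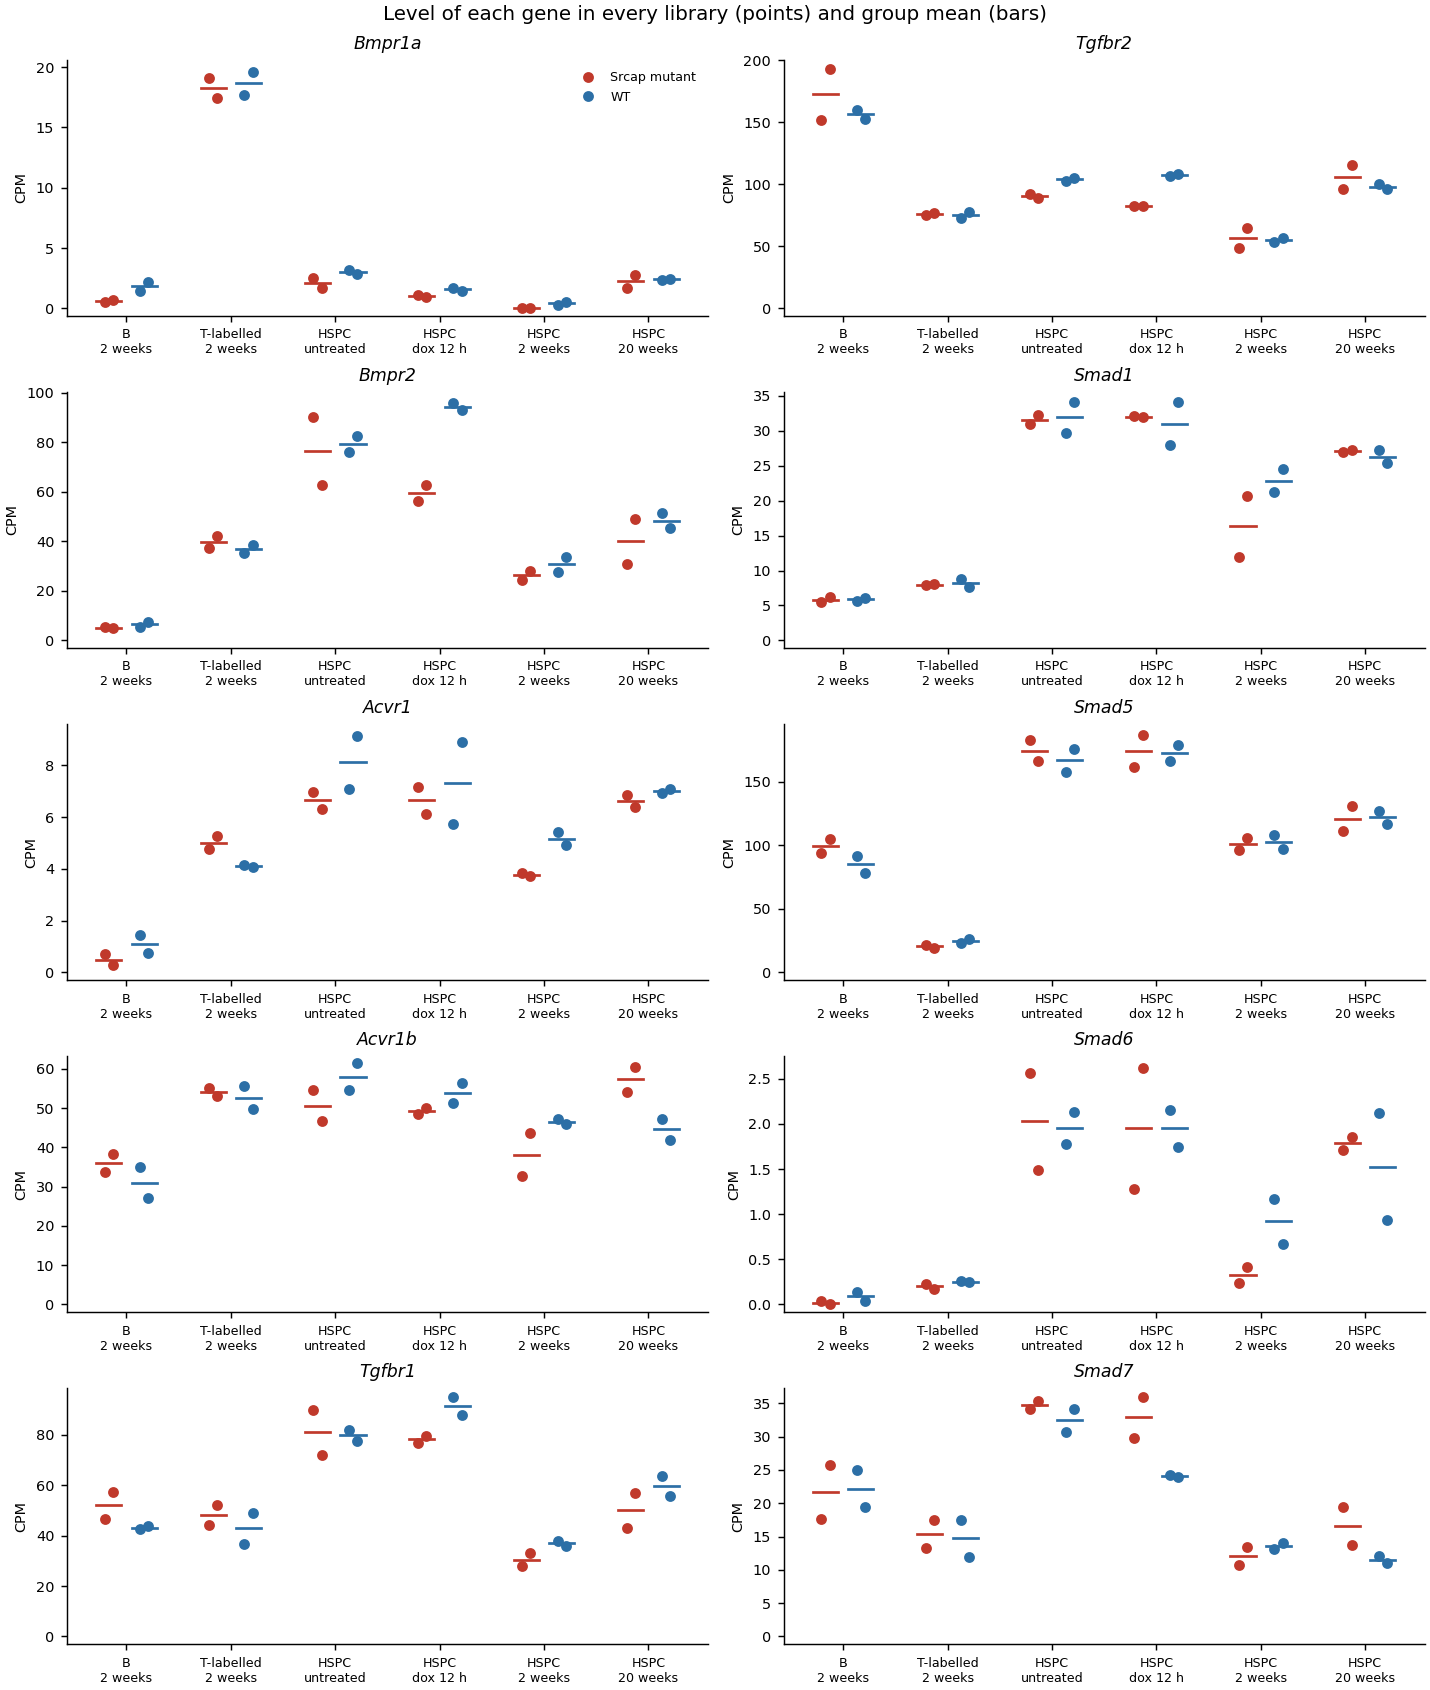
Level of each of the 10 genes in CPM (vertical axes, from 0) in every library (points) with group means (bars), mutant in red left of WT in blue, for B cells, T-labelled libraries and the 4 HSPC conditions. Bmpr1a lies at 17.4 to 19.6 CPM in the T-labelled libraries and at 3.17 CPM or less in all others, and its mutant 2-week HSPC points lie at 0.

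The T-labelled libraries held both the most Bmpr1a, 17.4 to 19.6 CPM, and the most granulocyte markers, 134000 to 153000 CPM. B cell libraries carried granulocyte markers at 8380 and 3510 CPM in mutants, against 8220 and 12600 CPM in WT. Per 100000 CPM of these markers, Bmpr1a had 5.8 and 20.4 CPM in mutant B cells and 17.5 and 17.6 CPM in WT B cells, and 11.4 to 14.1 CPM in the T-labelled libraries. Mutant B replicate 1 lay below WT B replicate 1 at nearly the same marker level, while mutant B replicate 2 had the fewest granulocyte markers and the highest ratio. Within HSPCs WT untreated replicate 1 had both the most granulocyte markers, 23200 CPM, and the most Bmpr1a, 3.17 CPM. Among the other HSPC libraries the order was another one. WT untreated replicate 2 had 2.86 CPM of Bmpr1a with 402 CPM of granulocyte markers, and both mutant 2-week libraries had 0 with 3370 and 3570 CPM. The 20-week HSPC libraries, which had 32.7 to 112 CPM of granulocyte markers, held 1.7 to 2.77 CPM of Bmpr1a. The part of granulocyte RNA in the B cell difference and in the untreated WT level was not tested. In bulk RNA fewer cells of a type and less RNA per cell cannot be told apart.

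**Figure D2:**
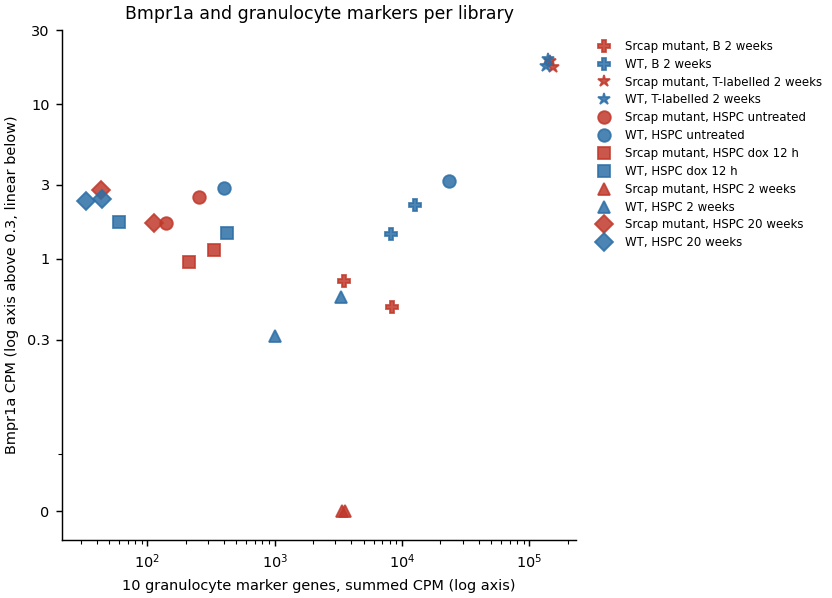
Bmpr1a level in CPM (vertical axis, log above 0.3 and linear below) against the summed CPM of 10 granulocyte marker genes (horizontal log axis), 1 point per library, mutant in red and WT in blue. The T-labelled libraries lie at the upper right, the doxorubicin, 20-week and untreated HSPC libraries other than WT untreated replicate 1 hold 0.953 to 2.86 CPM of Bmpr1a, and the mutant 2-week HSPC libraries lie at 0. WT untreated replicate 1 holds 3.17 CPM of Bmpr1a with 23200 CPM of these markers.

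No member was called in any of the 7 genotype comparisons. Calls among all genes in edgeR were few as well: 0% in untreated HSPCs, 0.0154% after doxorubicin, 0.138% at 2 weeks, 0.00512% at 20 weeks, 0.0359% in the mean of untreated, doxorubicin and 20-week HSPCs, 0.641% in B cells and 0.0114% in T-labelled libraries. Genes with an unadjusted p under 0.05 numbered 941, 1912, 1711, 742, 2102, 1928 and 1000 in that order. DESeq2 called 0 members in each of the 7 as well. The median change of the members was -0.06 in untreated HSPCs, where that of all genes tested was 0.02, -0.19 after doxorubicin (all genes 0.01), -0.25 at 2 weeks over 9 members (all genes -0.02), -0.01 at 20 weeks (all genes -0.00), -0.11 in the mean of the 3 conditions (all genes 0.01), -0.01 in B cells over 9 members (all genes -0.01) and 0.09 in T-labelled libraries (all genes 0.00).

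Bmpr2, the type II receptor of the BMPs (ENSMUSG00000067336.7, chromosome 1, 59802559 to 59918173, plus strand), came nearest to a call. After doxorubicin it had 56.4 and 62.8 CPM in mutant HSPCs, against 95.8 and 93 CPM in WT, and the groups did not overlap. It was 1.65-fold lower, -0.72 ± 0.21 with adjusted p = 0.241 in edgeR, and -0.72 with adjusted p = 0.0198 when no count filter was used. Without the filter the calls over all genes rose as well. Untreated mutant HSPCs held 90.1 and 62.9 CPM, around the WT values of 76.3 and 82.7 CPM. At 2 weeks it had 24.6 and 28 CPM in mutants and 27.8 and 33.7 CPM in WT, and at 20 weeks 30.9 and 49.1 CPM in mutants and 51.3 and 45.4 CPM in WT, with overlap both times. The mean of untreated, doxorubicin and 20-week HSPCs was -0.36 ± 0.12 with adjusted p = 0.288 in edgeR, and -0.51 without mutant 20-week replicate 2.

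Of the other receptors, Tgfbr2, the type II receptor that binds TGF-beta (ENSMUSG00000032440.14, chromosome 9, 115913361 to 116004428, minus strand), had 82.9 and 82.2 CPM in mutant HSPCs after doxorubicin, against 107 and 108 CPM in WT. Untreated mutant HSPCs held 92.5 and 89 CPM of Tgfbr2, against 103 and 105 CPM in WT. The groups did not overlap in either condition, at -0.44 ± 0.15 with adjusted p = 0.349 and -0.22 ± 0.15 with adjusted p = 1. At 20 weeks it had 96.6 and 116 CPM in mutants and 100 and 96.1 CPM in WT, which overlapped. Tgfbr1, its type I partner (ENSMUSG00000007613.16, chromosome 4, 47353222 to 47414931, plus strand), had 76.8 and 79.6 CPM in mutants after doxorubicin, against 95 and 87.9 CPM in WT, -0.29 ± 0.16 with adjusted p = 0.593. Acvr1b, the activin type I receptor (ENSMUSG00000000532.12, chromosome 15, 101071948 to 101111565, plus strand), had 54.2 and 60.5 CPM in mutants at 20 weeks, against 47.2 and 42 CPM in WT, 0.34 ± 0.16 with adjusted p = 1. Acvr1, another type I receptor of BMPs (ENSMUSG00000026836.16, chromosome 2, 58278656 to 58457169, minus strand), had 3.84 and 3.72 CPM in mutant HSPCs at 2 weeks, against 5.41 and 4.91 CPM in WT, -0.41 ± 0.32 with adjusted p = 0.734. In B cells Acvr1 had 0.7 and 0.286 CPM in mutants and 1.46 and 0.747 CPM in WT, -1.16 ± 0.53 with adjusted p = 0.442.

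Smad7, an inhibitory SMAD (ENSMUSG00000025880.12), had higher values in mutant HSPCs in 2 of 4 conditions without overlap. It stood at 29.8 and 36 CPM in mutant HSPCs after doxorubicin, against 24.3 and 23.9 CPM in WT, and at 19.5 and 13.7 CPM at 20 weeks in mutants, against 12.1 and 11 CPM in WT. The changes were 0.39 ± 0.19 (adjusted p = 0.518) and 0.49 ± 0.19 (adjusted p = 1), and the mean of untreated, doxorubicin and 20-week HSPCs was 0.32 ± 0.11 with adjusted p = 0.310. In untreated HSPCs Smad7 had 34.1 and 35.4 CPM in mutants and 30.7 and 34.2 CPM in WT, and at 2 weeks 10.7 and 13.4 CPM in mutants and 13.2 and 14.1 CPM in WT. Smad1, a receptor SMAD of the BMP branch (ENSMUSG00000031681.17, chromosome 8, 80065024 to 80126147, minus strand) had 12 and 20.7 CPM in mutant HSPCs at 2 weeks, against 21.2 and 24.5 CPM in WT, -0.46 ± 0.21 with adjusted p = 0.536. The mutant libraries lay further apart than the WT ones, and without mutant replicate 2 the change was -0.87. Smad5, its close relative (ENSMUSG00000021540.17, chromosome 13, 56850823 to 56890190, plus strand) had changes of -0.05 to 0.04 in the 4 HSPC conditions and SEs of 0.14. Smad6, the inhibitory SMAD of the BMP branch (ENSMUSG00000036867.8, chromosome 9, 63860358 to 63929341, minus strand) had 0.241 and 0.417 CPM in mutant HSPCs at 2 weeks, against 1.17 and 0.675 CPM in WT, -1.47 ± 0.68 with adjusted p = 0.558.

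**Figure D3:**
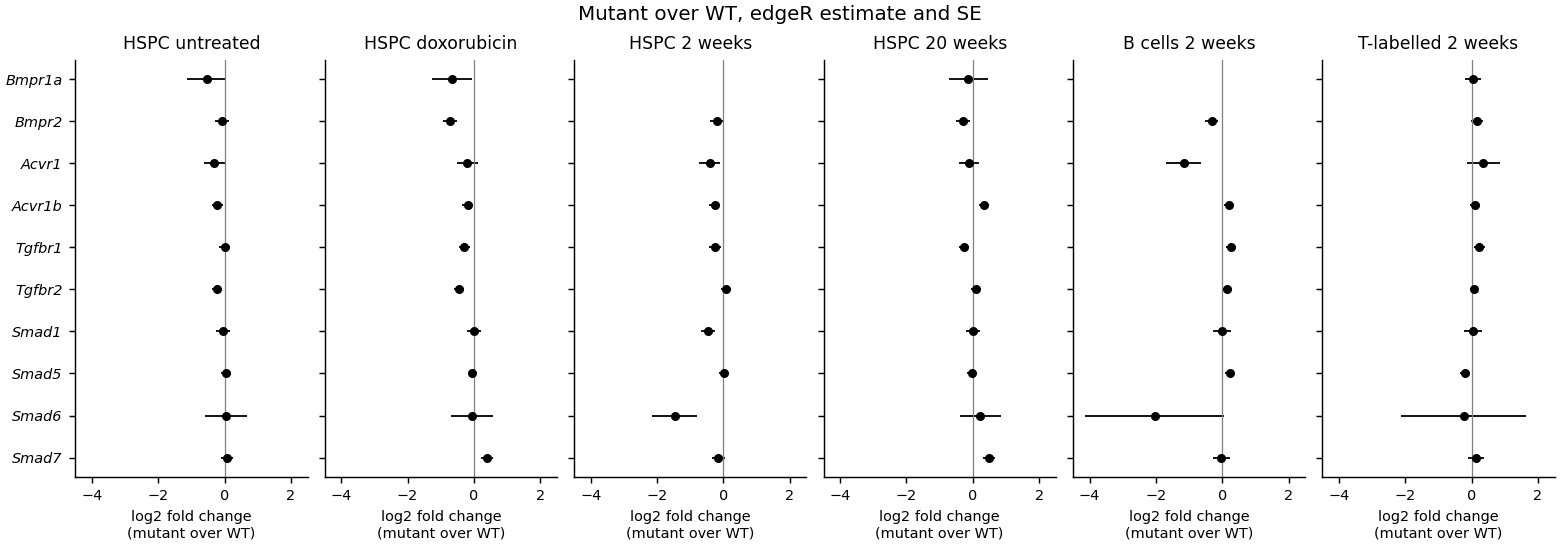
Log2 fold change of mutant over WT (horizontal axes) for the 10 genes (rows), 1 panel per condition and cell label, with points for edgeR's estimate and bars for its SE. Bmpr1a is left out in the 2-week HSPC and B cell panels, the contrasts that picked it. No point drawn has an adjusted p under 0.05, and the lowest, 0.241, is that of Bmpr2 after doxorubicin.

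Doxorubicin was compared with untreated HSPCs over both genotypes. Of the 10 genes edgeR called 0, where 0.0154% of all genes were called, unadjusted p fell under 0.05 in 1163 genes, and DESeq2 called 0 members. Bmpr1a had 1.14 and 0.953 CPM in mutants and 1.72 and 1.47 CPM in WT after the drug, against 2.51 and 1.71 CPM in untreated mutants and 3.17 and 2.86 CPM in untreated WT. Within each genotype the treated libraries lay below the untreated ones, with a change of -0.94 ± 0.42 and adjusted p = 0.832. The untreated WT library at 3.17 CPM is the one with granulocyte markers at 23200 CPM, and their part was not tested. Every other member changed by less than its SE except Smad7, at -0.23 ± 0.13 with adjusted p = 0.869, and the median of the members was -0.03, with 0.00 for all genes.

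At 2 weeks after transplantation all 9 genes besides Bmpr1a were lower than in untreated HSPCs and passed the test, where 46.1% of all genes were called and 24.9% fell. Bmpr1a is given as a description only, since the 2-week HSPC libraries took part in its choice. The median change of the 9 was -0.72 and that of all genes tested -0.14. Within WT libraries alone 5 of the 9 passed, Bmpr2, Tgfbr1, Tgfbr2, Smad5 and Smad7, where 29.8% of all genes were called, and within mutant libraries alone 7 of the 9, the same 5 with Smad1 and Smad6, where 34.3% were called. Sex and header directory differ between these conditions in every library and cannot be told apart from the time after transplantation. Without WT untreated replicate 1, the library with granulocyte markers, Acvr1b was the one of the 9 that did not pass. HSPC markers were also lower, at a sum of 1170 to 1590 CPM at 2 weeks against 2810 to 3560 CPM in untreated HSPCs. Markers of some other cells were higher: erythroid markers summed to 323 to 1200 CPM at 2 weeks, against 17.2 to 272 CPM untreated, and megakaryocyte markers to 163 to 331 CPM, against 46.6 to 85.3 CPM. T cell markers were lower, at 44.2 to 50.2 CPM against 75.6 to 131 CPM. B cell markers summed to 352 to 1000 CPM at 2 weeks, against 908 to 1430 CPM untreated. Granulocyte markers summed to 1010 to 3570 CPM at 2 weeks, against 141 to 402 CPM in 3 untreated libraries and 23200 CPM in WT untreated replicate 1. The part of these markers in the result was not tested.

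Among the BMP receptors, Bmpr1a had 0.315 and 0.563 CPM in WT at 2 weeks, against 3.17 and 2.86 CPM in untreated WT, 6.5-fold lower by edgeR's estimate. No test is given for it, because the WT 2-week libraries also served to select the gene, and no fold is given for the mutant 2-week libraries, which held 0 counts. Bmpr2 held 24.6 to 33.7 CPM at 2 weeks, against 62.9 to 90.1 CPM untreated, with no overlap, and fell 2.58-fold (-1.37 ± 0.15, adjusted p = 7.49e-07). Acvr1 fell by 0.65 ± 0.22 on the log2 scale (adjusted p = 0.0229), but neither genotype passed alone, with adjusted p = 0.171 in WT and 0.0948 in mutants, and its call was lost without WT untreated replicate 2, mutant untreated replicate 1 or either WT 2-week library. Acvr1b, the activin type I receptor, fell by 0.28 ± 0.11 (adjusted p = 0.0499), and lost its call in 14 of 23 alternatives.

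Both TGF-beta receptors fell. Tgfbr1 held 27.8 and 33.1 CPM in mutants and 37.9 and 35.8 CPM in WT at 2 weeks, against 72 to 89.7 CPM untreated, and fell 2.25-fold (-1.17 ± 0.12, adjusted p = 2.34e-07). Tgfbr2 held 48.3 to 64.9 CPM at 2 weeks, against 89 to 105 CPM untreated, and fell 1.65-fold (-0.72 ± 0.11, adjusted p = 2.69e-05). Of the receptor SMADs, Smad5 held 96.4 to 108 CPM, against 158 to 183 CPM untreated (-0.66 ± 0.10, adjusted p = 2.89e-05), and Smad1 12 to 24.5 CPM, against 29.7 to 34.1 CPM (-0.63 ± 0.15, adjusted p = 0.00156). None of these groups overlapped. The inhibitory SMADs fell too, Smad7 to 10.7 to 14.1 CPM, against 30.7 to 35.4 CPM untreated, 2.46-fold (-1.30 ± 0.14, adjusted p = 4.05e-07). Smad6 held 0.241 to 1.17 CPM at 2 weeks, against 1.49 to 2.57 CPM untreated, 3.43-fold lower (-1.78 ± 0.47, adjusted p = 0.00439), and did not pass in WT alone, with adjusted p = 0.255.

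At 20 weeks 1 of the 10 genes was higher and 2 were lower than in untreated HSPCs, where 23.6% of all genes were called, 13.1% higher and 10.6% lower. The median change of the members was 0.09 and that of all genes 0.02. Smad7 fell to 19.5 and 13.7 CPM in mutants and 12.1 and 11 CPM in WT, against 30.7 to 35.4 CPM untreated, 1.91-fold with no overlap (-0.93 ± 0.14, adjusted p = 0.000123), and was the 1 member that also passed in WT alone, where 4.41% of all genes were called. In mutant libraries alone Smad7 fell and Tgfbr2 and Acvr1b rose, where 14.5% were called. The 20-week libraries come from another header directory than the untreated ones, which cannot be told apart from the time after transplantation. HSPC markers summed to 2410 to 2750 CPM at 20 weeks, against 2810 to 3560 CPM untreated, and megakaryocyte markers to 136 to 184 CPM, against 46.6 to 85.3 CPM, and their part in these changes was not tested. Bmpr2 had 30.9 to 51.3 CPM, against 62.9 to 90.1 CPM untreated, and fell by 0.46 ± 0.15 (adjusted p = 0.0302), but not in either genotype alone. Its call was also lost (adjusted p = 0.0518 to 0.188) without WT untreated replicate 2, mutant untreated replicate 1, mutant 20-week replicate 1 or either WT 20-week library. Tgfbr2 was called higher, 0.43 ± 0.11 with adjusted p = 0.00693, although its CPM overlapped, at 96.1 to 116 at 20 weeks and 89 to 105 untreated. Immunoglobulin genes took 16.9% to 26.7% of the counts at 20 weeks, against 3.66% to 6.22% untreated, and scaling by total counts in place of TMM shifted the median of all genes to -0.33. Tgfbr2 then stood at 0.07 with adjusted p = 0.662, and Tgfbr1, at -0.56, and Smad5, at -0.49, fell with adjusted p = 0.00104 and 0.000815. Without WT 20-week replicate 2 Smad7 alone was called, and without mutant 20-week replicate 2 Tgfbr1 fell as well (-0.34, adjusted p = 0.0328). Bmpr1a, at 1.7 to 2.77 CPM against 1.71 to 3.17 CPM untreated, changed by 0.25 ± 0.42 with adjusted p = 0.722.

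**Figure D4:**
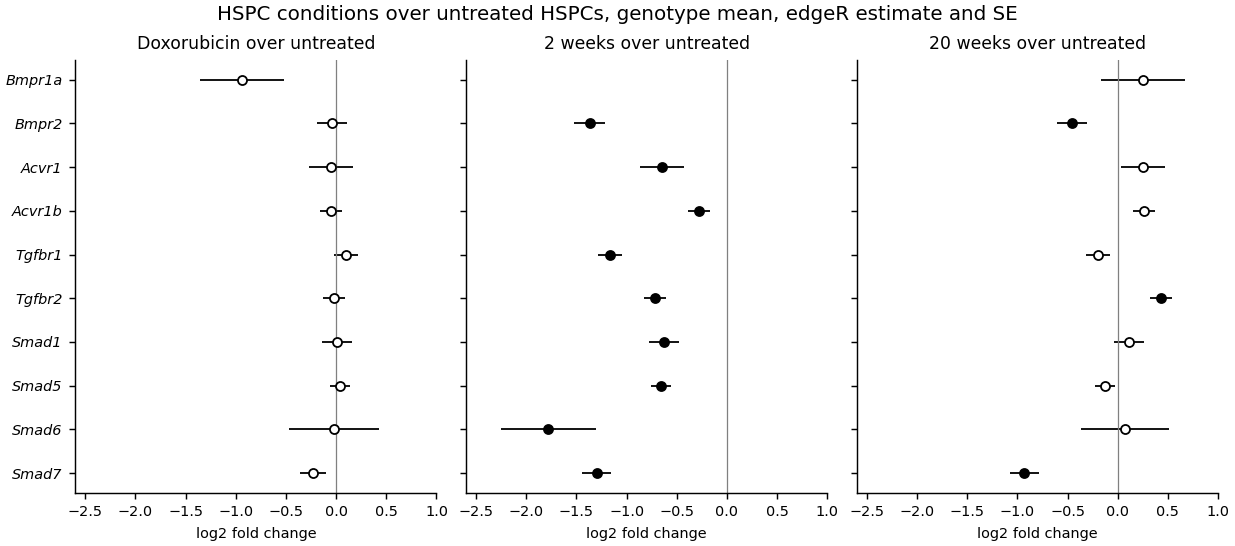
Log2 fold change over untreated HSPCs (horizontal axes), averaged over the genotypes, for the 10 genes (rows) after doxorubicin, at 2 weeks and at 20 weeks, with points for edgeR's estimate and bars for its SE. Filled points have an adjusted p under 0.05. Bmpr1a is left out at 2 weeks, since the 2-week HSPC libraries took part in its choice. All other members lie left of 0 at 2 weeks, and after doxorubicin no point is filled.

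Per unit of exon length, the order of the 10 genes differed between the cell labels. In the 16 HSPC libraries Smad5 led with a mean of 51.8 ± 17.6 TPM (SD), followed by Acvr1b (30 ± 6.98), Tgfbr2 (27.8 ± 6.57), Tgfbr1 (26 ± 11.1), Smad7 (13.6 ± 7.17), Smad1 (11.7 ± 3.56), Bmpr2 (8.51 ± 4.21), Acvr1 (3.5 ± 0.983), Smad6 (1.27 ± 0.66) and Bmpr1a (0.616 ± 0.396 TPM). Ranges of neighbours in this order overlapped throughout. In the 4 B cell libraries Tgfbr2 led with 63.3 ± 9.36 TPM, apart from Smad5 at 39.2 ± 6 TPM, and Bmpr1a came eighth with 0.591 ± 0.361 TPM, overlapping its neighbours Bmpr2 and Acvr1. In the 4 T-labelled libraries Acvr1b led with 27.3 ± 1.63 TPM and Bmpr1a came sixth with 6.56 ± 0.434 TPM, above Bmpr2 at 4.8 ± 0.26 TPM without overlap. The TPM ratio of Bmpr1a to Bmpr2, type I to type II BMP receptor, was 1.17 to 1.45 in T-labelled libraries, 0.256 and 0.415 in mutant and 0.769 and 0.833 in WT B cells, and at most 0.16 in any HSPC library. Bmpr1a was picked on the B cell libraries, so the split of this ratio by genotype there is no separate result. Smad6 was last in both B cell and T-labelled libraries.

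**Figure D5:**
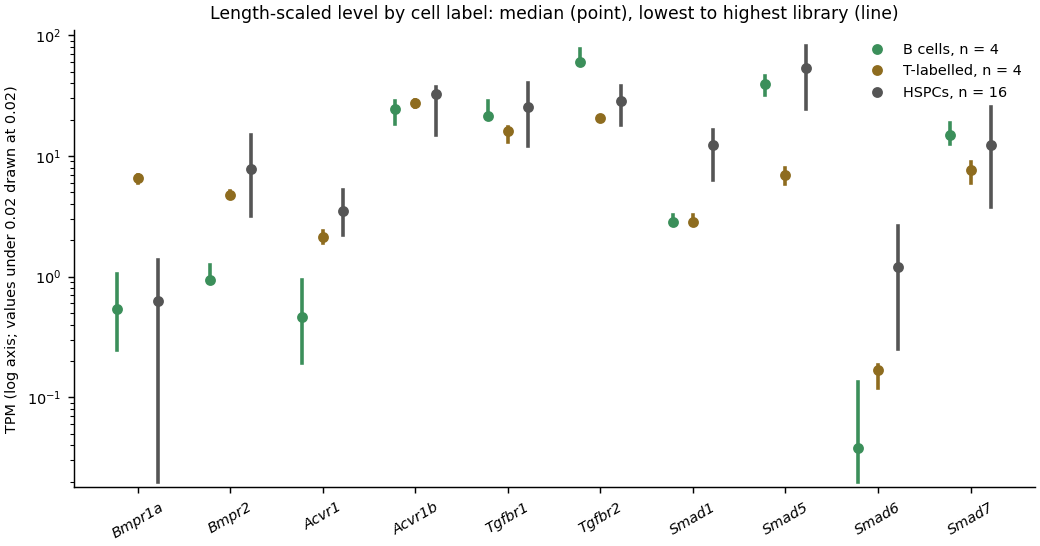
Level in TPM (vertical log axis, values under 0.02 drawn at 0.02) of the 10 genes in B cells, T-labelled libraries and HSPCs, with points for the median and lines from the lowest to the highest library. Bmpr1a is highest in T-labelled libraries, Tgfbr2 in B cells, and Smad1 and Smad6 in HSPCs.

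B cells were compared with HSPCs at 2 weeks over both genotypes, since all these libraries share sex and header directory. Of the 9 genes besides Bmpr1a 3 rose and 4 fell, where 53.9% of all genes were called, 28.3% higher and 25.5% lower. The median change of the 9 was -0.21 and that of all genes 0.06. Tgfbr2 had 152 and 193 CPM in mutant and 160 and 153 CPM in WT B cells, against 48.3 and 64.9 CPM in mutant and 53.3 and 56.8 CPM in WT HSPCs. It was 3.23-fold higher with no overlap (1.69 ± 0.11, adjusted p = 8.97e-09). Tgfbr1 rose by 0.63 ± 0.12 (adjusted p = 0.000471), though in WT alone it stood at 0.34 with adjusted p = 0.13, and Smad7 rose by 0.90 ± 0.19 (adjusted p = 0.000881). Bmpr1a, at 1.44 and 2.22 CPM in WT B cells against 0.315 and 0.563 CPM in WT HSPCs, is given with no test, since both sets of libraries took part in its choice.

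The BMP receptors Bmpr2 and Acvr1 and the SMADs Smad1 and Smad6 were lower in B cells. Bmpr2 had 4.88 to 7.55 CPM in B cells, against 24.6 to 33.7 CPM in HSPCs, 4.53-fold lower (-2.18 ± 0.14, adjusted p = 1.31e-08). Acvr1 had 0.286 to 1.46 CPM, against 3.72 to 5.41 CPM, 5.46-fold lower (-2.45 ± 0.38, adjusted p = 7.95e-05). Smad1 had 5.46 to 6.21 CPM, against 12 to 24.5 CPM, 3.01-fold lower (-1.59 ± 0.20, adjusted p = 1.17e-05). In none of these 3 genes did the groups overlap. Smad6 had 2 and 0 counts in mutant and 7 and 2 counts in WT B cells, and its fall (-3.46 ± 1.15, adjusted p = 0.0206) was lost within either genotype and without WT HSPC replicate 1, WT B replicate 2 or mutant B replicate 2. Smad5, at -0.02 ± 0.09, and Acvr1b, at -0.21 ± 0.12, were not called, though Acvr1b passed in WT alone (-0.47, adjusted p = 0.0368) and under total count scaling (-0.33, adjusted p = 0.0311). Erythroid markers summed to 7060 to 18600 CPM in B cells, against 323 to 1200 CPM in 2-week HSPCs, and granulocyte markers to 3510 to 12600 CPM, against 1010 to 3570 CPM. The part of both in these differences was not tested.

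T-labelled libraries, compared with 2-week HSPCs, had 6 of the 9 genes besides Bmpr1a higher and 1 lower, where 61.9% of all genes were called, 32.6% higher and 29.3% lower, and the median of the 9 was 1.07, that of all genes 0.03. Bmpr1a was 70.5-fold higher by edgeR's estimate in WT T-labelled libraries, at 17.7 and 19.6 CPM, than in WT HSPCs, at 0.315 and 0.563 CPM, with no test because it was picked on these HSPC libraries. The 6 rose by 0.88 to 1.28: Acvr1b had 49.8 to 55.5 CPM, against 32.7 to 47.1 CPM in HSPCs (1.18 ± 0.12, adjusted p = 5.39e-07), and Tgfbr2 72.6 to 77.6 CPM, against 48.3 to 64.9 CPM (1.28 ± 0.10, adjusted p = 7.25e-08). Bmpr2 stood at 1.26 ± 0.14, Tgfbr1 at 1.28 ± 0.12, Smad7 at 1.07 ± 0.19 and Acvr1 at 0.88 ± 0.36, with adjusted p up to 0.0445, which is that of Acvr1. The CPM of Tgfbr1, Smad7 and Acvr1 overlapped between the labels, and Acvr1 lost its call in 12 of 19 alternatives. Smad5 had 19.6 to 26.1 CPM, against 96.4 to 108 CPM, 2.51-fold lower (-1.33 ± 0.10, adjusted p = 1.85e-08). Smad1, at -0.42 ± 0.20, and Smad6, at -0.44 ± 1.03, were not called, but Smad1 was called by DESeq2 (-0.46, adjusted p = 0.0441), in WT alone and without mutant HSPC replicate 1. The rises of Acvr1b and Tgfbr2 in these TMM-scaled folds are larger, and the fall of Smad5 smaller, than their CPM show. With total counts in place of TMM the median of all genes was -0.79. Acvr1, at 0.04, and Smad7, at 0.23, then lost their calls, and Smad1, at -1.26 with adjusted p = 8.18e-05, fell.

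Between B cells and T-labelled libraries 2 of the 9 genes besides Bmpr1a were higher in B cells and 6 lower, where 52.9% of all genes were called, 27% higher and 25.9% lower. The median was -1.18 over the 9 and 0.16 over all genes. Bmpr1a was 16-fold lower by edgeR's estimate in WT B cells, at 1.44 and 2.22 CPM, than in WT T-labelled libraries, at 17.7 and 19.6 CPM, with no test because it was picked on the B cell libraries. Bmpr2 was 10.9-fold lower in B cells, at 4.88 to 7.55 CPM against 35.3 to 42 CPM (-3.45 ± 0.15, adjusted p = 1.15e-10), and Acvr1 10.1-fold lower (-3.33 ± 0.39, adjusted p = 4.58e-06). Acvr1b (-1.39 ± 0.12), Smad1 (-1.18 ± 0.20), Tgfbr1 (-0.65 ± 0.12) and Smad6 (-3.02 ± 1.14) were also lower, and Smad6 lost its call in 13 of 19 alternatives. Smad5 was 2.5-fold higher in B cells, at 78.4 to 105 CPM against 19.6 to 26.1 CPM (1.32 ± 0.10, adjusted p = 2.99e-08), and Tgfbr2 1.33-fold higher (0.41 ± 0.10, adjusted p = 0.00372). The fall of Bmpr2 in these TMM-scaled folds is larger, and the rise of Smad5 smaller, than their CPM show. With total counts in place of TMM the median of all genes moved to 0.86. Tgfbr1, at 0.06 with adjusted p = 0.699, then lost its call and its direction, Smad7 turned to 0.54 with adjusted p = 0.022, and Smad1, at -0.46, was not called.

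The rest of the pathway was read through lists of other receptors, other SMADs, ligands, ligand-handling proteins, regulators of the receptors and SMADs, and textbook target genes. No gene of these lists was called in any genotype comparison or after doxorubicin. The nearest was Id1, a BMP target, which had 0.389 ± 0.0277 CPM in mutant B cells and 1.32 ± 0.422 CPM in WT B cells (SD, n = 2 each), -1.76 ± 0.39 with adjusted p = 0.0677 in edgeR. Id1 was also higher in T-labelled libraries than in 2-week HSPCs. B cell libraries held granulocyte markers at 8380 and 3510 CPM in mutants and 8220 and 12600 CPM in WT. Their part in the Id1 difference was not tested. Bmpr1b, the sister receptor of Bmpr1a, averaged 0.0441 CPM or less in every group. At 2 weeks against untreated HSPCs, where 21.2% of all genes were called higher and 24.9% lower, 2 of 5 tested receptors rose and 2 fell. Tgfbr3, the betaglycan co-receptor, rose by 1.30 ± 0.14 (adjusted p = 7.39e-07), and Acvr2a, an activin type II receptor, fell by 2.47 ± 0.18 (adjusted p = 6.99e-09). Eng, the endoglin co-receptor, rose by 0.41 ± 0.11 (adjusted p = 0.00452). Of 17 genes of the ligand list, which also holds the protease Bmp1, 2 rose and 6 fell. Gdf3 rose by 3.83 ± 0.24 and Tgfb1 by 0.86 ± 0.12 (adjusted p = 9.24e-10 and 1.07e-05 in edgeR). Of 3 SMADs outside the 10 genes, Smad4, the common partner, fell by 0.86 ± 0.15 and Smad3 by 0.49 ± 0.11 (adjusted p = 7.66e-05 and 0.00136). Of 14 target genes 1 rose and 5 fell, among them Id2, an inhibitor of differentiation, by 1.31 ± 0.27 (adjusted p = 0.00184), and of 18 regulators 3 rose and 9 fell, among them Tgif1, a SMAD corepressor, by 0.89 ± 0.10 (adjusted p = 1.46e-06). At 20 weeks, where 13.1% of all genes were called higher and 10.6% lower, Tgfbr3 and Eng were higher and Acvr2a lower than in untreated HSPCs, and 2 of 14 targets rose, among them Klf10, an early TGF-beta target, by 0.87 (adjusted p = 1.68e-05).

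Among cell labels, the receptor Acvrl1, a type I receptor of BMP9 and BMP10, stood beside Bmpr1a as high in T-labelled libraries, at 199 and 144 CPM in mutants and 189 and 190 CPM in WT, against 1.63 to 3.38 CPM in 2-week HSPCs (6.93 ± 0.65, adjusted p = 7.2e-05). WT untreated replicate 1, which carried granulocyte markers, held 17.3 CPM of Acvrl1, where the other untreated libraries held 0.99 to 1.04 CPM, and B cells held 9.82 and 1.43 CPM in mutants and 9.9 and 11.8 CPM in WT. Eng was the reverse, at 5.29 ± 0.356 CPM in mutant and 5.65 ± 1.04 CPM in WT T-labelled libraries, against 134 ± 15 and 144 ± 2.25 CPM in mutant and WT HSPCs of 2 weeks (SD, n = 2 each; -3.82 ± 0.17, adjusted p = 1.44e-10). In B cells Eng fell by 4.07 ± 0.17 relative to HSPCs (adjusted p = 2.72e-10). Among target genes, in T-labelled libraries Id1 rose by 3.91 ± 0.32 and Tgfbi by 6.14 ± 0.28 relative to HSPCs (adjusted p = 6.88e-08 and 4.29e-08), and in B cells Id3 rose by 2.36 ± 0.21 (adjusted p = 2.57e-07). Of the targets tested 5 of 13 rose and 2 fell in T-labelled libraries, beside 32.6% and 29.3% of all genes, and 4 of 13 rose and 4 fell in B cells, beside 28.3% and 25.5% of all genes. Skil, a SMAD repressor, rose in both, by 2.39 ± 0.14 and 2.20 ± 0.14 (adjusted p = 1.56e-09 and 7.78e-09).

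Likeness of pattern was measured as Pearson's r of group means, as log2 of TMM-scaled CPM with 1 added, over the 12 groups, which share libraries and cell labels. The 5 genes most like Bmpr1a were Tmem38a (0.992), Evi2a (0.991), Rin2 (0.990), Plp2 (0.989) and Cd84 (0.989), and Rin2, for example, held 133 ± 0.926 CPM in mutant and 128 ± 1.18 CPM in WT T-labelled libraries (SD, n = 2 each), against group means of 3.25 to 17 CPM elsewhere. Over the 8 HSPC groups alone they were Tmem220 (0.993), Evi2a (0.991), Timp2 (0.986), Vsig10 (0.985) and Mageh1 (0.984), of which Evi2a is common to both lists. The gene most like Smad5 was Msi2 (0.997), a stem cell RNA-binding protein, and the gene most like Tgfbr1 was Smad4 (0.977). For the other members they were Rgs18 for Bmpr2 (0.991), Tmed10 for Acvr1 (0.988), Fam53c for Acvr1b (0.968), Rnase6 for Tgfbr2 (0.982), Layn for Smad1 (0.991), Cpxm1 for Smad6 (0.988) and C030034I22Rik for Smad7 (0.979). Among the members the closest pairs were Bmpr2 with Acvr1 and Smad1 with Smad6, both at 0.96, and Bmpr1a ran with Acvr1b at 0.87 and against Smad5 at -0.73. The 12 groups include those that picked Bmpr1a and the T-labelled ones, where Bmpr1a was highest and Smad5 lowest. In WT HSPCs both were lower at 2 weeks than untreated, Bmpr1a at 0.439 against 3.02 CPM and Smad5 at 103 against 167 CPM.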

How the data were processed

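Libraries of 24 samples were made with a stranded mRNA kit, per the labels' protocols. The deposited files hold raw counts per gene: per the file headers, the authors ran featureCounts v2.0.1 in paired mode, counting exons on the reverse strand against GENCODE M28. FastQC, STAR and Subread are named in the submitters' processing notes, as are the builds mm39 and mm10, and no source used here gives aligner settings. The files' coordinates are taken as GRCm39, and promoters come from GRCm38.p6, with no conversion between them. The extraction protocol names sorted HSPCs for all samples, also those labelled B and T cells. Of 55414 gene IDs 52081 took a symbol. No gene that overlaps a member had more than 13 counts in a library.

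Counts were filtered with filterByExpr (minimum 10, total 15), scaled by TMM and tested with edgeR 4.0.16 (R 4.3.3, robust quasi-likelihood, a mean for each group) in 3 fits: 16 HSPC libraries (19522 genes), 8 B and T-labelled libraries (17484 genes) for genotype, and 12 libraries of 2 weeks (19018 genes) for cell labels. All 10 members passed each filter. Calls have an adjusted p under 0.05 over all genes tested. The scripts were tested on simulated data. Alternatives were DESeq2 1.42.0, RLE size factors, total count scaling, leaving the count filter out, a block for the replicate number and each library left out in turn, and single-genotype contrasts were added after seeing the data. The 10 members and the pathway lists were chosen with earlier results of these data known. Besides the members, genes were named by rule: up to 4 called genes of each list with the smallest adjusted p, and the nearest genes in pattern (mean CPM of at least 1). Bmpr1b, Id1 between genotypes and the per-library values of Acvrl1 were added after their values were seen. Ctgf had no entry under that name. Floors cover counting error only, while the SEs and SDs printed also carry the spread between libraries.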

Additional observations from a re-analysis of the deposited data

How the results depend on the processing

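Among values of single members under an alternative, 2456 kept their side of the threshold, of which 128 changed sign, 65 lost a call, 13 gained one and 2 reversed, Tgfbr1 (0.06) and Smad7 (0.54) between B cells and T-labelled libraries under total count scaling, which shifts the median of all genes. No members were called between genotypes except 1, Bmpr2, after doxorubicin with no count filter, and 0 to 1 over the leave-outs at 2 weeks (Smad1) and in the mean of untreated, doxorubicin and 20-week HSPCs (Bmpr2). Against untreated HSPCs, WT libraries alone gave 5 of the 9 genes besides Bmpr1a at 2 weeks and 1 member at 20 weeks. The leave-outs gave 1 to 4 members at 20 weeks. With Bmpr1a counted, the 2-week numbers were 6 in WT alone and 8 to 10 over the leave-outs. These 2-week numbers include a gene chosen on the same libraries, so they are no test of the 10 genes. Leaving 1 library in a group assumes that it varies like the other groups. Low counts limit Smad6 in B cells and Bmpr1a in 2-week HSPCs.

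Counts over all genes moved more. For untreated, doxorubicin, 2-week and 20-week HSPCs, the mean of untreated, doxorubicin and 20-week HSPCs, B cells and T-labelled libraries, edgeR called 0, 3, 27, 1, 7, 112 and 2 genes between genotypes, DESeq2 152, 282, 261, 20, 303, 337 and 24, and edgeR with no count filter 467, 474, 399, 149, 693, 590 and 145. The leave-outs ranged over 0 to 250, 0 to 29, 11 to 672, 0 to 302, 1 to 340, 39 to 517 and 1 to 11. RLE size factors gave 1 gene in T-labelled libraries. Doxorubicin against untreated gave 3 genes, 99 in DESeq2, 421 with no filter, 1 in WT and 0 in mutant libraries alone, and 1 to 139 over the leave-outs. The 2-week against untreated count of 9000 was 5820 in WT alone, and the 20-week count of 4612 was 861 in WT and 2825 in mutant libraries alone, and 2947 to 5243 over the leave-outs.

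The replicate numbers are not known to pair libraries: the labels name no pairs, some samples carry another number in their header than in their title, and the title's number was used, and deviations of same-numbered libraries correlated at -0.157 to 0.219. With the replicate block the counts over all genes were 16 at 2 weeks, 2 at 20 weeks, 284 in B cells and 101 in T-labelled libraries, and the block changed the number of members called in none of the 13 comparisons.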
